A study of Mus musculus with 16 samples.

Results

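The 10 genes described here link autophagy and the sensing of intracellular bacteria to Crohn disease and to Paneth cells: *Nod2*, *Ripk2*, *Atg16l1*, *Atg5*, *Atg7*, *Irgm1*, *Lrrk2*, *Map1lc3b*, *Sqstm1* and *Becn1*. They were taken by name from the 45513 mouse genes counted, of which 15323 had enough reads to be tested, and 9 of the 10 were among those tested. The libraries came from 8 adult C57BL/6 mice of both sexes that were homozygous for *Atoh1*(WT)CreERT2, in which the *Atoh1* locus drives a tamoxifen-dependent Cre recombinase, and that also carried the R26RtdTom reporter, which Cre switches on. According to the sample labels, every mouse was given tamoxifen daily over 3 days in a row, at 1 mg each time. The proximal small intestine was fractionated to enrich crypts, and live EpCAM+ epithelial cells of each mouse were sorted into a tdTom+ fraction, which holds cells that expressed *Atoh1* and their progeny, and a tdTom- fraction, giving 16 libraries in all. No untreated mouse or mouse with any other allele was part of this comparison, and both fractions came from the same tamoxifen-treated animals.

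Paneth cells sit at the base of small intestinal crypts and secrete antimicrobial proteins. NOD2 is a cytosolic receptor for muramyl dipeptide, a fragment of the bacterial cell wall, and signals through the kinase RIPK2. In autophagy, the E1-like enzyme ATG7 and the ATG12-ATG5-ATG16L1 complex attach LC3 to the growing autophagosome membrane, beclin 1 belongs to the lipid kinase complex that starts this membrane, and p62 (encoded by *Sqstm1*) carries ubiquitinated cargo to LC3. Human *NOD2*, *ATG16L1*, *IRGM* and *LRRK2* lie in regions associated with Crohn disease risk, and mice with reduced *Atg16l1*, *Atg5*, *Atg7* or *Irgm1* function have been reported with altered Paneth cell granules.

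The libraries held 17116405 to 25323567 reads assigned to genes, and the fractions differed as their labels say. *Atoh1*, which marks the secretory lineage, averaged 62.5 ± 12.7 CPM (read counts of a gene scaled to a fixed total per library, after normalisation between libraries) in tdTom+ and 0.718 ± 0.247 CPM in tdTom- (SD, n = 8 mice each). *Lyz1*, a Paneth cell lysozyme, averaged 28143 ± 7517 CPM and 161 ± 24.1 CPM. The summed level of 8 goblet markers was 128104 to 264225 CPM in tdTom+ and 952 to 1511 CPM in tdTom-, that of 8 Paneth markers 52683 to 139451 and 405 to 595 CPM, and that of 8 absorptive markers 1563 to 6021 and 14550 to 38346 CPM. tdTom+ is therefore a mixture of goblet, Paneth and other secretory cells, and a level in it is not a level in Paneth cells alone. In these bulk fractions, fewer cells of a type and less RNA per cell cannot be told apart. Enteroendocrine markers were also higher in tdTom+ (8 of 8 genes, summing to 2054 to 3155 CPM in tdTom+ and 597 to 1084 CPM in tdTom-), as were tuft markers (8 of 8, 88.9 to 336 and 19.8 to 108 CPM) and 4 of 8 stem cell markers (1583 to 2805 and 1118 to 2809 CPM). Stromal markers summed to 18.6 to 46.0 and 3.92 to 8.40 CPM, with 1 of the 3 tested higher and *Col1a1* and *Pdgfra* under 3 counts in every library. Markers of lymphocytes and plasma cells were lower in tdTom+. The 8 T and intraepithelial lymphocyte markers summed to 5.85 to 27.9 CPM in tdTom+ and 10.1 to 141 CPM in tdTom-, with 6 of the 8 lower. The 8 B and plasma cell markers summed to 72.3 to 381 and 374 to 2904 CPM, with 4 of the 4 tested lower. The 8 macrophage and monocyte markers summed to 1369 to 3475 and 23.0 to 51.2 CPM, with 1 of the 4 tested higher and 2 lower. The higher one, *Lyz2*, averaged 2406 and 14.1 CPM, and the 7 others summed to 8.92 to 16.6 and 11.5 to 32.7 CPM. Mouse 7 stood apart. Its tdTom- library had the lowest absorptive (14550 CPM, the others 24823 to 38346) and the highest B and plasma cell and stem cell sums of its fraction (2904 and 2809 CPM). Its tdTom+ library had the highest Paneth sum (139451 CPM, the others 52683 to 97277) and the lowest goblet and absorptive sums (128104 and 1563 CPM). The part of all these cells in the results below was not tested, and where leaving out mouse 7 changed a call or moved a value by over 1.5 times the value without it is given.

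Of the 9 genes tested, 4 were higher in tdTom+ (*Atg7*, *Irgm1*, *Sqstm1* and *Map1lc3b*), 1 was lower (*Becn1*) and 4 did not pass the test (*Nod2*, *Ripk2*, *Atg16l1* and *Atg5*). *Lrrk2* had too few reads to be tested. The test was edgeR's quasi-likelihood F test with each mouse as a block, and a gene passed at a Benjamini-Hochberg adjusted p under 0.01 over all 15323 genes. At this threshold 55.8% of all genes tested differed between the fractions, 25.8% higher and 30.0% lower in tdTom+, so that 5 of 9 is close to the share among all genes. The median absolute log2 difference was 0.20 for the 9 genes and 0.38 for all genes tested. Of the 9, 3 (33.3%) passed with a difference of at least 0.5 on the log2 scale, compared with 39.8% of all genes. A difference of at least 1 was reached by 0 of 9, compared with 22.8% of all genes. Whether so few genes differ in size from all genes was not tested.

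**Figure D1:**
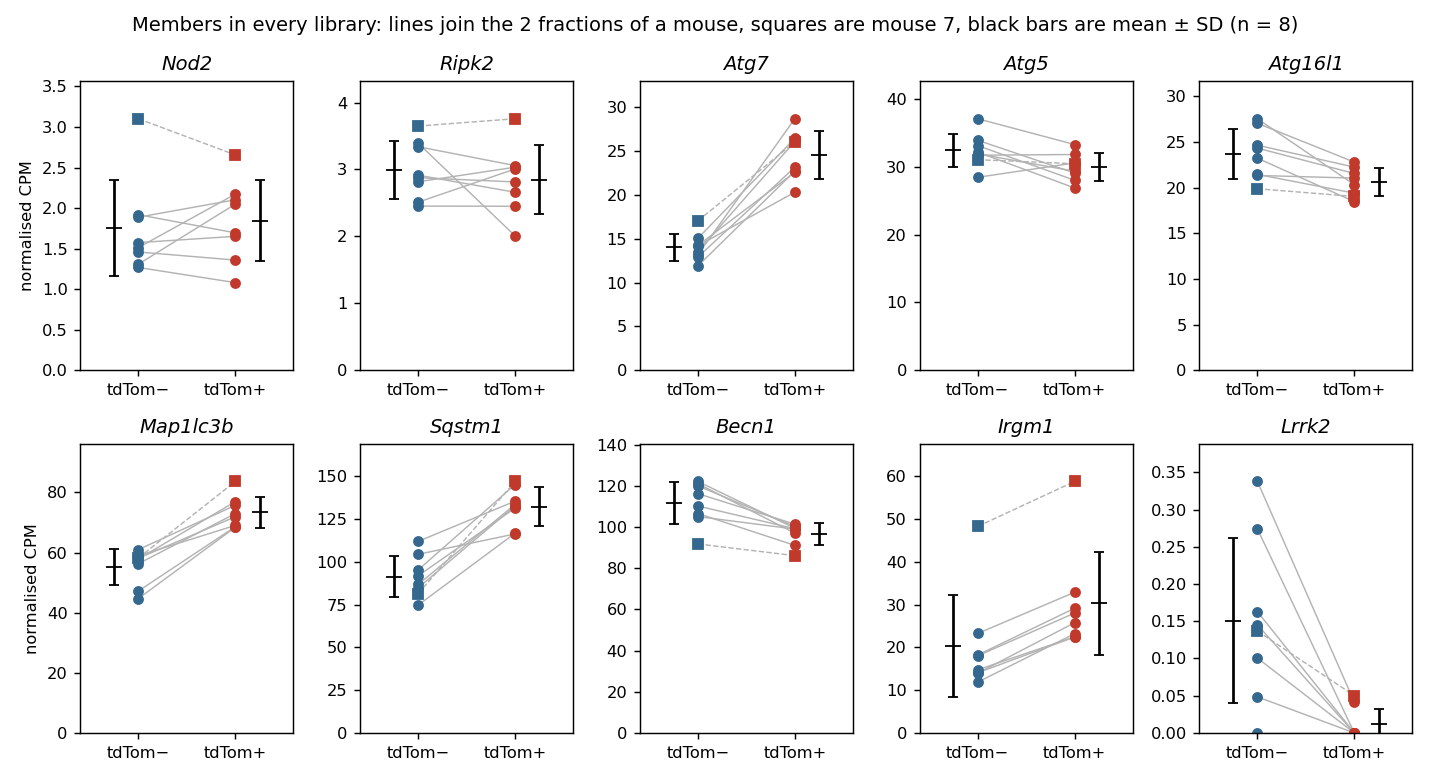
Levels of the 10 genes in each library, as normalised CPM on axes that start at 0, with 1 point per library, tdTom- in blue, tdTom+ in red, a line joining the fractions of each mouse, squares for mouse 7 and black bars for the mean and SD (n = 8). *Atg7*, *Map1lc3b* and *Sqstm1* lie higher in every tdTom+ library than in any tdTom- library, *Nod2* and *Ripk2* overlap throughout, and *Lrrk2* is at or near 0.

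The clearest difference was in *Atg7* (chr6:114643097-114860614, GRCm38), the enzyme that activates both ATG12 and LC3 for conjugation. Its level ran from 20.3 to 28.7 CPM (median 24.6) in tdTom+ and from 11.9 to 17.1 CPM (median 13.9) in tdTom-. The fractions did not overlap, and the tdTom+ library was the higher in 8 of 8 mice. The level was 1.75-fold higher in tdTom+ (log2 difference 0.81 ± 0.07 SE, edgeR adjusted p = 3.3e-07), and within single mice the log2 difference ran from 0.51 to 1.12. Among all genes tested, 31.6% had fractions that did not overlap, 14.6% with tdTom+ above and 17.0% with tdTom- above, and 48.6% passed the test with the same direction in all 8 mice.

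*Atg5* and *Atg16l1*, whose products form the complex that ATG7 helps to assemble, did not follow *Atg7*. *Atg5* (chr10:44268358-44364291) ran from 26.9 to 33.3 CPM (median 29.9) in tdTom+ and from 28.5 to 37.1 CPM (median 32.0) in tdTom-, with a log2 difference of -0.12 (95% interval -0.24 to 0.01, edgeR adjusted p = 0.0861). *Atg16l1* (chr1:87755870-87792428) ran from 18.5 to 22.8 CPM (median 20.7) and from 19.9 to 27.6 CPM (median 23.8). Its tdTom- library was the higher in 8 of 8 mice, but the ranges overlapped and the log2 difference of -0.20 (95% interval -0.33 to -0.07) missed the threshold with an edgeR adjusted p of 0.0110. It passed without mouse 7 (log2 -0.21, adjusted p = 0.00784) and when libraries were scaled by their totals alone (-0.26, adjusted p = 0.00435), and over all alternatives its adjusted p ran from 0.00435 to 0.292. For both genes the intervals exclude a difference of the size seen for *Atg7*.

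The other genes of the conjugation step, from a list of 8, gave 0 higher, 3 lower and 5 that did not pass, with a median log2 difference of -0.18 beside 0.02 for all genes tested. *Atg12*, the ubiquitin-like partner of ATG5, averaged 39.9 CPM in tdTom+ and 38.0 CPM in tdTom- (log2 0.07, edgeR adjusted p = 0.367). *Atg16l2*, the paralog of *Atg16l1*, averaged 3.03 and 2.35 CPM (log2 0.35, adjusted p = 0.0387). *Atg3*, the E2-like enzyme that hands LC3 on to lipid, was lower in tdTom+ at 29.5 against 33.6 CPM (log2 -0.18, adjusted p = 0.00841). That call was lost under 11 of 18 alternatives, over which its adjusted p ran from 0.00145 to 0.381.

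Promoter windows from a RefSeq table (GRCm38.p6), which run from 250 bases before to 50 after a RefSeq start, were found for 7 of the 10 genes (*Nod2*, *Atg5*, *Atg7*, *Map1lc3b*, *Sqstm1*, *Irgm1* and *Lrrk2*). The E-box letters CACGTG, the core bound by TFEB and other basic helix-loop-helix factors, read the same on both strands. They occur in 7.15% of all 32851 windows, in 9.71% of the 12967 windows of genes tested and in 2 of these 7, those of *Atg5* and *Atg7*. The *Atg7* window lies 27999 bases inside the gene and 9066 bases from the nearest annotated transcript start, so it is not the window of the gene's first exon, and the sites are not printed.

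*Map1lc3b* and *Sqstm1*, which encode LC3B and the p62 receptor that binds it, were both higher in tdTom+. *Map1lc3b* (chr8:121590361-121598760) ran from 68.4 to 83.7 CPM (median 72.5) in tdTom+ and from 44.7 to 61.0 CPM (median 58.0) in tdTom-, a 1.33-fold difference (log2 0.41 ± 0.05 SE, edgeR adjusted p = 1.4e-05). *Sqstm1* (chr11:50199366-50210827) ran from 116 to 147 CPM (median 133) and from 74.8 to 112 CPM (median 89.4), a 1.45-fold difference (log2 0.54 ± 0.07 SE, adjusted p = 1.8e-05). Neither gene's fractions overlapped, and each was higher in tdTom+ in 8 of 8 mice. Within single mice the log2 difference was 0.23 to 0.61 for *Map1lc3b* and 0.16 to 0.85 for *Sqstm1*. TGACNNNGC, an antioxidant response element searched on both strands, is held by 12.4% of all windows and by 14.4% of those of genes tested. It occurs in 1 of the 7 windows, that of *Map1lc3b*.

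Within the LC3 and GABARAP family the paralogs differed in size of change. *Map1lc3a*, which encodes LC3A, averaged 19.6 ± 2.73 CPM in tdTom+ and 6.32 ± 0.939 CPM in tdTom- (log2 1.63, edgeR adjusted p = 1.2e-09). *Gabarapl1* averaged 15.3 and 6.47 CPM (log2 1.24, adjusted p = 1.9e-07). *Gabarap*, with 205 and 199 CPM (log2 0.04, adjusted p = 0.518), and *Gabarapl2*, with 55.2 and 59.5 CPM (log2 -0.11, adjusted p = 0.0868), did not pass the test. The genes of the family that did not pass were thus *Gabarap*, the most counted in both fractions, and *Gabarapl2*. The largest log2 difference was that of *Map1lc3a*.

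Receptors that bring cargo to LC3, a list of 16 genes besides *Sqstm1*, were described by their cargo, with no test of a difference between classes. Of 5 other receptors that bind ubiquitin, 0 were higher, 3 were lower and 2 did not pass. *Optn*, which encodes optineurin, averaged 66.3 ± 12.0 CPM in tdTom+ and 157 ± 40.4 CPM in tdTom- (log2 -1.22, edgeR adjusted p = 1.3e-09), *Tax1bp1* 199 and 281 CPM (log2 -0.49) and *Tollip* 52.1 and 68.8 CPM (log2 -0.40), with no overlap of the fractions in any of the 3. *Nbr1*, the receptor most like p62 in build, averaged 168 and 148 CPM (log2 0.19, adjusted p = 0.0812). Of 6 endoplasmic reticulum receptors, 3 were higher and 2 lower. *Retreg1*, which encodes FAM134B, averaged 73.7 and 23.3 CPM (log2 1.71, adjusted p = 9.5e-08), *Sec62* 101 and 54.8 CPM (log2 0.88) and *Ccpg1* 5.42 and 1.93 CPM (log2 1.48), all without overlap. Of 5 mitochondrial receptors and their regulators, 2 were higher, among them *Fundc1* (12.2 and 8.11 CPM, log2 0.60), and 1 was lower, *Pink1* (57.2 and 109 CPM, log2 -0.92, adjusted p = 6.3e-09). Over the whole list 5 rose, 6 fell and 5 did not pass, with a median log2 difference of -0.05.

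**Figure D2:**
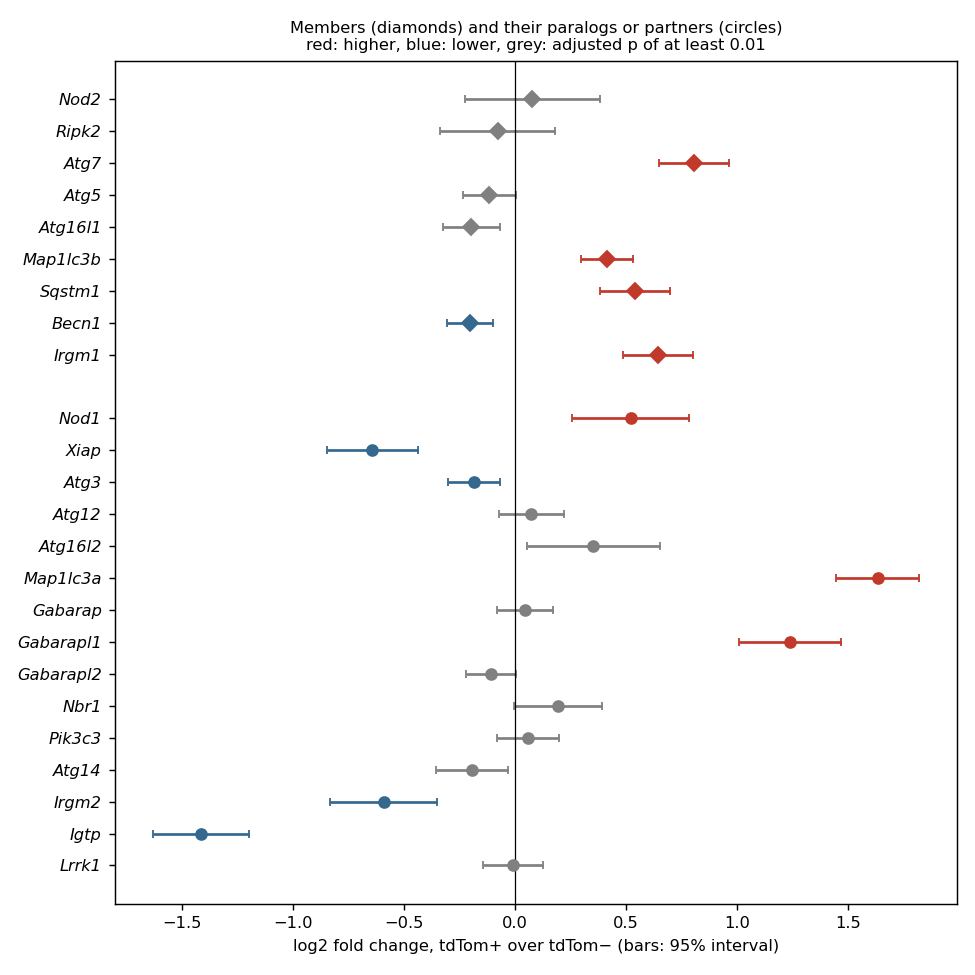
Log2 difference of tdTom+ over tdTom- for the 9 genes tested and for their paralogs and direct partners, with the 9 genes as diamonds, the others as circles, bars for the 95% interval of the edgeR fit, a line at 0 and colour for higher (red), lower (blue) or not passed (grey). *Atg7* at 0.81 leads the 9 genes, while *Map1lc3a* at 1.63 and *Igtp* at -1.41 lie outside their range.

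*Becn1* (chr11:101285952-101302286), which encodes beclin 1, was the only one of the 9 genes with a lower level in tdTom+ that passed the test. It ran from 86.2 to 101 CPM (median 99.2) in tdTom+ and from 91.9 to 122 CPM (median 113) in tdTom-. The tdTom- library was the higher in 8 of 8 mice. Mouse 7 was the lowest in both fractions, and the ranges overlapped only through it, since the other 7 mice lay at 91.2 to 101 CPM in tdTom+ and 105 to 122 CPM in tdTom-. The log2 difference was -0.20 ± 0.05 SE (edgeR adjusted p = 0.00211), or -0.32 to -0.09 within single mice. The call was lost without mouse 3 (log2 -0.08, adjusted p = 0.196), where the median of all genes moved up by 0.10. Taken relative to that shift the difference was -0.19. Over all alternatives its adjusted p ran from 0.000438 to 0.196.

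The other 7 members of the class III PI3 kinase complexes gave 2 higher, 1 lower and 4 that did not pass. *Pik3c3*, the catalytic subunit that beclin 1 binds, averaged 25.2 and 24.2 CPM (log2 0.06, edgeR adjusted p = 0.452), and *Atg14*, which directs the complex to the forming autophagosome, 10.6 and 12.2 CPM (log2 -0.19, adjusted p = 0.0366). *Rubcn*, which encodes the inhibitory subunit Rubicon, was lower in tdTom+ at 33.7 ± 1.38 against 52.1 ± 7.71 CPM (log2 -0.62, adjusted p = 8.2e-06), and the fractions did not overlap.

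Over the 41 other genes of the autophagy machinery, 40 of which were tested, 9 were higher in tdTom+, 12 were lower and 19 did not pass, with a median log2 difference of -0.09. The 4 genes named for the largest rises were *Stx17*, the SNARE of autophagosome fusion (66.9 ± 7.48 and 17.7 ± 1.28 CPM, log2 1.92, edgeR adjusted p = 3.0e-11), *Map1lc3a* (above), *Wipi1*, a reader of the lipid that the beclin 1 complex makes (23.5 and 8.98 CPM, log2 1.40), and *Tecpr1*, a tether between autophagosome and lysosome (61.0 and 24.9 CPM, log2 1.29). The 4 named for the largest falls were taken from genes that were lower in 8 of 8 mice. They were *Vmp1*, a lipid scramblase of the endoplasmic reticulum (111 ± 17.1 and 212 ± 32.5 CPM, log2 -0.94, adjusted p = 1.0e-08), *Rubcn*, *Epg5*, a tether to late endosomes (26.0 and 40.1 CPM, log2 -0.60), and *Atg2b*, a lipid transfer protein (37.5 and 46.1 CPM, log2 -0.30). *Atg9a* (31.4 and 45.4 CPM, log2 -0.52), *Rb1cc1* (log2 -0.34) and *Tmem41b* (log2 -0.32) also passed, with larger falls than *Atg2b*, each in 7 of 8 mice. By step, the counts higher and lower were 2 and 1 of 5 genes for the initiation kinase complex, 1 and 5 of 9 for membrane supply and 2 and 2 of 7 for fusion with the lysosome. Without mouse 3 the counts over the machinery became 10 higher and 4 lower, and without mouse 7 they were 7 and 13. Over all genes tested, 3956 were higher and 4600 lower with all mice. Without mouse 3, where the median of all genes moved up by 0.10, they were 4529 and 3626, and without mouse 7 they were 4300 and 4623. Without mouse 3, *Atg2b* also no longer passed (log2 -0.19, adjusted p = 0.0294, with 5.6e-05 to 0.0294 over its alternatives). Lysosomal genes, 15 of 16 tested, gave 4 higher, 6 lower and 5 that did not pass (median log2 -0.15). *Ctsb*, which encodes cathepsin B (261 and 456 CPM, log2 -0.81), *Mcoln1* (log2 -0.72) and *Lamp1* (310 and 431 CPM, log2 -0.47) were lower, and *Atp6v0d1*, a subunit of the proton pump (66.4 and 51.4 CPM, log2 0.37), was higher.

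**Figure D3:**
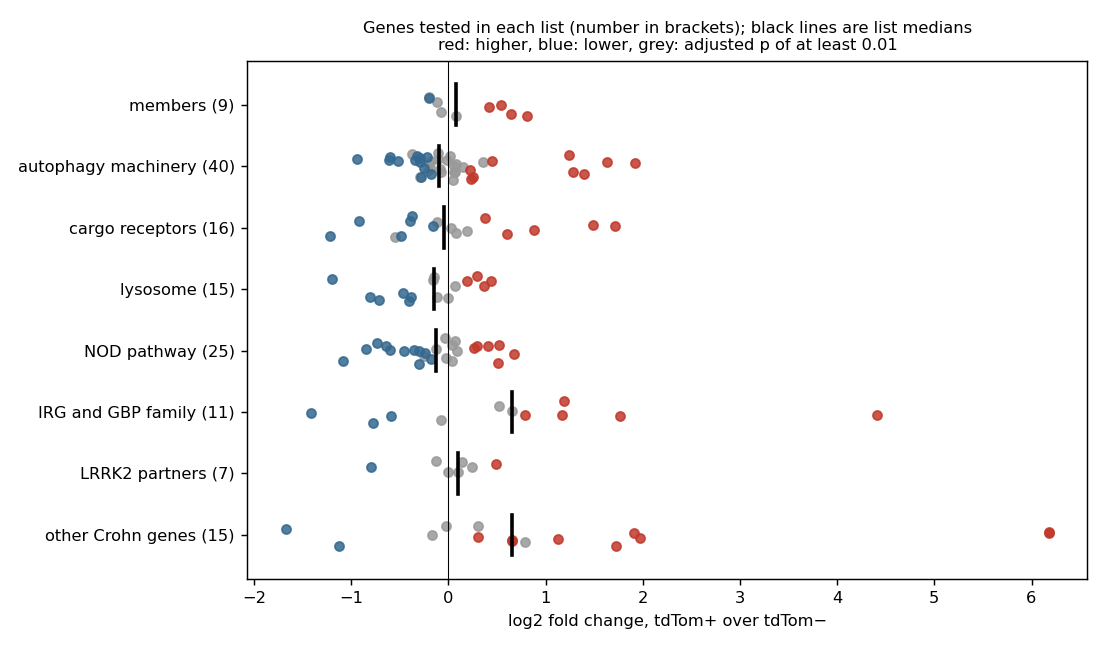
Log2 difference of tdTom+ over tdTom- for each tested gene of the set and of the partner lists, with 1 point per gene, coloured by whether it was higher, lower or did not pass the edgeR test, and a bar at each list's median. The autophagy, cargo receptor, lysosome and NOD lists spread to both sides of 0 with medians of -0.09, -0.05, -0.15 and -0.13.

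*Irgm1* (chr11:48861968-48871683), an interferon-inducible GTPase and a mouse counterpart of human *IRGM*, was higher in tdTom+ within every mouse, with mouse 7 far above the others in both fractions. It ran from 22.4 to 58.8 CPM (median 26.9) in tdTom+ and from 11.9 to 48.3 CPM (median 16.4) in tdTom-. The highest value of each fraction came from mouse 7, and the fractions overlapped with that mouse and, over 22.4 to 32.9 and 11.9 to 23.2 CPM, without it. The log2 difference was 0.64 ± 0.07 SE (1.56-fold, edgeR adjusted p = 3.3e-06), and 0.28 to 0.96 within single mice. Without mouse 7 it was 0.70 (adjusted p = 5.1e-07). The call rested on the pairing of fractions by mouse: with no replicate block the log2 difference was 0.58 and the adjusted p 0.0776 in edgeR and 0.0547 in DESeq2 (log2 0.60). Over all alternatives the adjusted p ran from 6.9e-13 to 0.0776.

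The IRG and GBP families, many of whose members are GTPases induced by interferon gamma, were listed with 14 other members. Of the 11 tested, 5 were higher in tdTom+, 3 were lower and 3 did not pass (median log2 0.65). The closest relatives of *Irgm1* went the other way. *Igtp*, which encodes Irgm3, averaged 11.7 ± 11.6 CPM in tdTom+ and 30.2 ± 26.5 CPM in tdTom- (log2 -1.41, edgeR adjusted p = 2.7e-08), and its tdTom- library was the higher in 8 of 8 mice. *Irgm2* averaged 11.8 and 18.2 CPM (log2 -0.59, adjusted p = 0.00036), with tdTom- the higher in 7 of 8 mice. *Gbp2*, a guanylate-binding protein, averaged 13.6 ± 16.9 CPM in tdTom+ and 0.591 ± 0.623 CPM in tdTom- (log2 4.41, adjusted p = 7.4e-10) with no overlap of the fractions. Without mouse 7 *Gbp2* averaged 7.83 ± 4.44 and 0.388 ± 0.265 CPM (n = 7 mice, log2 4.27, edgeR adjusted p = 2.7e-09). *Gbp7* averaged 5.58 ± 3.45 and 2.33 ± 0.865 CPM (log2 1.19, adjusted p = 6.3e-07). Mouse 7 had the highest level of its fraction for 14 of these 15 genes, *Irgm1* included, in tdTom+ and for 13 of 15 in tdTom-. Mouse 5 was the next highest in both fractions for *Irgm1*, *Irgm2*, *Igtp*, *Gbp2* and *Gbp7*. In tdTom+ and tdTom- it reached 20.4 and 59.0 CPM for *Igtp*, 17.7 and 35.0 CPM for *Irgm2* and 17.5 and 0.731 CPM for *Gbp2*. The *Gbp2* means without mouse 7 still include mouse 5. With no replicate block 3 of the 11 passed instead of 8, and *Igtp* (log2 -1.36, adjusted p = 0.0310) and *Irgm2* (log2 -0.62, adjusted p = 0.206) did not. Over all alternatives the adjusted p ran from 7.3e-33 to 0.0310 for *Igtp* and from 7.7e-06 to 0.261 for *Irgm2*. In the GENCODE M21 annotation, which gave the gene symbols, *Irgm2* and *Igtp* share 162 bases of exon on the same strand (4.39% and 8.01% of their exon length). Reads from shared bases cannot be told apart. The exons behind the counts differ slightly (3621 bases for *Irgm2*, compared with 3690), and the overlap in them was not measured. Several of these genes, *Tgtp1*, *Tgtp2* and the *Gbp* genes among them, have near-identical copies, and the assignment of reads between copies is uncertain.

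**Figure D4:**
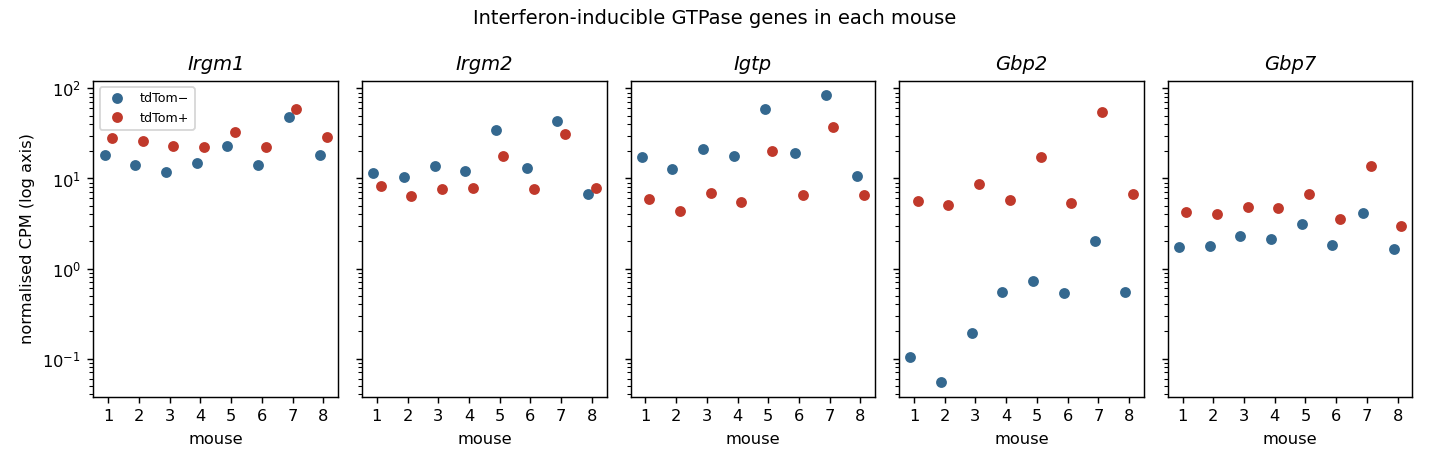
Levels of *Irgm1* and of related interferon-inducible GTPases in each mouse, as normalised CPM on a log axis, with tdTom- in blue and tdTom+ in red and the 8 mice along the horizontal axis. Mouse 7 is the highest in both fractions for *Irgm1* (58.8 and 48.3 CPM), and *Irgm1* is higher in tdTom+ in every mouse while *Igtp* is lower in every mouse.

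These genes are shown with the interferon-stimulated response element in their promoters because genes that hold it moved in both directions. The letters searched were TTTC, any 2 bases and TTTC again, which read GAAA, 2 bases and GAAA on the other strand. They occur in 3.44% of all 32851 windows and in 3.04% of the 12967 windows of genes tested. Of the 7 windows of the 10 genes, 1 holds them, that of *Irgm1*, in overlapping matches of which the one nearer the start is shown. Of the 10 windows of the IRG and GBP list, which cover 9 of its 14 genes, 8 hold them. Sites are printed 5′ to 3′ on the gene's strand with the motif in capitals. They lie at chr11:48871425-48871454 (minus strand), chr11:58214903-58214932 (plus), chr11:58199512-58199541 (plus), chr3:142620594-142620623 (plus) and chr3:142530273-142530302 (plus) of GRCm38.p6, and the motif begins 24, 64, 34, 59 and 53 bases before the RefSeq start. That start lies within 31 bases of an annotated transcript start for each of the 5 genes, but for *Irgm2* it is 15359 bases inside the gene, whose longest transcript begins near *Igtp*.
Irgm1: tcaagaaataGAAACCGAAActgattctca
Irgm2: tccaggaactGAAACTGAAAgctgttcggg
Igtp: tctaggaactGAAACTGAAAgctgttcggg
Gbp2: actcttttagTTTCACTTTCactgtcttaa
Gbp7: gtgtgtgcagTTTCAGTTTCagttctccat
TTCNNNGAA, the gamma-activated site, reads the same on both strands and is held by 8.30% of all windows and by 6.92% of those of genes tested. It occurs in 0 of the 7 windows and in 6 of the 10. It is present in those of *Irgm2*, *Igtp* and *Gbp7* and not in those of *Irgm1* and *Gbp2*.

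*Nod2* (chr8:88647315-88688474) and *Ripk2* (chr4:16122733-16163647) were detected at low levels in both fractions without a difference that passed the test. *Nod2* ran from 1.08 to 2.66 CPM (median 1.87) in tdTom+ and from 1.27 to 3.10 CPM (median 1.54) in tdTom-, from 26 to 68 reads a library, and was higher in tdTom+ in 4 of 8 mice. Its log2 difference was 0.08 (95% interval -0.23 to 0.38, edgeR adjusted p = 0.650). The highest tdTom- value was again that of mouse 7, and without that mouse the log2 difference was 0.13. *Ripk2* ran from 2.01 to 3.76 CPM (median 2.91) and from 2.45 to 3.65 CPM (median 2.90), from 44 to 80 reads a library, and was higher in tdTom+ in 3 of 8 mice (log2 -0.08, 95% interval -0.34 to 0.18, adjusted p = 0.585). The intervals hold differences in either direction, and one that lies within them is not excluded. Both the low read counts and the spread between mice enter these intervals, and their parts were not separated.

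Around them, 25 of 26 other genes of the NOD pathway were tested, and 6 were higher in tdTom+, 11 were lower and 8 did not pass (median log2 -0.13). *Nod1*, the receptor for another peptidoglycan fragment, averaged 6.27 ± 1.56 CPM in tdTom+ and 4.49 ± 2.01 CPM in tdTom- (log2 0.52, edgeR adjusted p = 0.00201) and was higher in 8 of 8 mice. It passed only with fractions paired by mouse: with no replicate block the log2 difference was 0.48 (adjusted p = 0.0612, with 0.000404 to 0.0612 over its alternatives). *Slc15a4*, a transporter of peptidoglycan fragments out of endosomes, averaged 12.1 and 8.57 CPM (log2 0.51). The ubiquitin ligases and editing enzymes that act on RIPK2 or downstream of it gave 2 higher and 7 lower of 10. *Tnfaip3*, which encodes A20, averaged 11.8 ± 1.54 and 25.1 ± 4.29 CPM (log2 -1.09, adjusted p = 3.2e-08), *Rnf31*, the catalytic subunit of the linear ubiquitin ligase, 28.6 and 51.7 CPM (log2 -0.85), and *Xiap*, which ubiquitinates RIPK2, 56.2 ± 3.15 and 89.5 ± 19.1 CPM (log2 -0.64, adjusted p = 4.0e-05). *Otulin*, which removes linear ubiquitin, was higher (log2 0.67), as was *Traf6* at 27.4 and 20.7 CPM (log2 0.41). Among the kinases, *Chuk* was lower at 66.7 and 112 CPM (log2 -0.73). Without mouse 3 the counts over the list became 6 higher and 7 lower, while those over all genes moved from 3956 and 4600 to 4529 and 3626.

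*Lrrk2* (chr15:91673175-91816120), a large kinase that is most studied in Parkinson disease and in myeloid cells, was at or near 0. All 8 tdTom+ libraries together held 2 reads of it, 1 in each of 2 libraries, and the 8 tdTom- libraries 26 reads, with at least 1 in 7 of 8 and at most 8 in any library. The gene failed the filter on low counts. Without the filter edgeR gave a log2 difference of -3.16 (adjusted p = 0.00298) and DESeq2, run unfiltered, -2.99 with the replicate block (adjusted p = 0.0173) and -3.34 with no block (adjusted p = 0.00129), but fitted differences of so few reads depend on the model and no fold is given. The lymphocyte and B and plasma cell markers were higher in tdTom- as well. The 7 macrophage and monocyte markers besides *Lyz2* summed to 8.92 to 16.6 CPM in tdTom+ and 11.5 to 32.7 CPM in tdTom-. Of these, *Cd68* (log2 -0.89) and *Itgam* (log2 -0.77) were lower in tdTom+, and *Cd14* did not pass (log2 0.37). The part of all these cells in the *Lrrk2* reads was not tested. *Lrrk1*, its paralog, averaged 33.5 CPM in tdTom+ and 33.8 CPM in tdTom- (log2 -0.01, edgeR adjusted p = 0.918). Of 7 genes for *Lrrk1*, Rab substrates of LRRK2 and related trafficking proteins, *Rab2a* was higher at 165 and 117 CPM (log2 0.49), *Rab8a* was lower at 93.8 and 164 CPM (log2 -0.80, adjusted p = 4.0e-09) and 5 did not pass.

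Compared per length of exon sequence, the mean levels of the 10 genes stood in the same order in both fractions. The order of mean CPM per kilobase, in tdTom+ and then in tdTom-, was *Sqstm1* at 39.4 and 27.2, *Becn1* at 13.7 and 15.8, *Atg5* at 12.7 and 13.8, *Map1lc3b* at 9.77 and 7.36, *Irgm1* at 5.22 and 3.49, *Atg7* at 4.65 and 2.66, *Atg16l1* at 2.14 and 2.46, *Ripk2* at 1.01 and 1.06, *Nod2* at 0.368 and 0.350 and *Lrrk2* at 0.000968 and 0.0127. Neighbours in this order whose ranges over the 8 mice overlapped in both fractions were *Becn1* with *Atg5*, *Map1lc3b* with *Irgm1* and *Irgm1* with *Atg7*. *Atg7* and *Atg16l1* overlapped in tdTom- only. Without mouse 7 *Irgm1* stood at 4.52 and *Atg7* at 4.61 in tdTom+, which turns their order there, and at 2.80 and 2.58 in tdTom-. *Sqstm1* stood above *Becn1*, and *Nod2* below *Ripk2*, in all 8 mice of each fraction. The length used was that of all annotated exons of a gene merged, which understates the level of a gene whose main transcript uses few of them. Other genes on the same strand lie over part of *Map1lc3b* (*Gm20388*), *Ripk2* (*Gm22690*), *Atg5* (*Mir1929*) and *Atg16l1* (*Gm25395* and *Scarna6*). Whether shared reads lowered the counts of these genes was not tested.

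Other genes linked to Crohn disease risk or to Paneth cell defects in mice, 15 of 18 tested, gave 9 higher, 2 lower and 4 that did not pass. Among all genes tested 25.8% were higher and 30.0% lower, with a median log2 difference of 0.02. The median was 0.08 for the 9 genes above and 0.65 for the genes of this list. The largest were *Agr2* (2265 ± 332 and 31.6 ± 6.63 CPM, log2 6.18, edgeR adjusted p = 1.5e-14), a disulfide isomerase of mucus-producing cells that is also one of the goblet markers, and *Ern2* (144 ± 25.2 and 1.98 ± 0.493 CPM, log2 6.18), the unfolded protein sensor of the same cells. *Slc39a8*, a metal transporter, was higher as well (log2 1.97), and *Fut2*, a fucosyltransferase, averaged 5.48 and 1.41 CPM (log2 1.91). *Xbp1*, the transcription factor of the unfolded protein response, averaged 309 and 141 CPM (log2 1.12, adjusted p = 1.8e-09). *Slc22a5*, the carnitine transporter OCTN2, was lower at 21.6 and 70.4 CPM (log2 -1.68), as was *Pgm1* at 30.6 and 67.0 CPM (log2 -1.13). The goblet and Paneth marker sums moved with this list, and their part in it was not tested.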

How the data were processed

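RNA of sorted EpCAM+tdTom+ and EpCAM+tdTom- cells was sequenced from stranded mRNA libraries. The authors deposited raw read counts per Ensembl gene, 1 file per library, made per the file headers with featureCounts 1.5.0-p1 (exons, reverse-stranded, primary alignments), while the submitters' processing notes name Subread 1.5.2, TopHat2 2.1.1, DESeq2 1.14.1 and GRCm38.p3. Of 45513 gene IDs, 44585 matched a symbol. Groups came from the labels.

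Counts were scaled by TMM, filtered with filterByExpr and fitted in edgeR 4.0.16 (R 4.3.3) over all 16 libraries with the mouse as a block, which is the main fit because both fractions came from each mouse. Same-numbered libraries deviated together (correlation of deviations from the fraction means 0.245 to 0.634, mean -0.0569 for different numbers), and 8 of 8 tdTom- libraries were most like the tdTom+ library of their own number. No pair of libraries held identical counts. The biological coefficient of variation was 11.9%. CPM are computed on TMM-scaled library sizes, and values after ± are SDs over 8 mice unless SE is written. Counting error and replicate spread both enter the p-values, and intervals are at the 95% level. Alternatives were other scalings, filters and thresholds, thinning to the smallest library (17116405 reads), DESeq2 1.42.0, limma-voom (limma 3.58.1), no block, and leaving out each mouse. The scripts were tested on simulated counts.

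The genes and lists were chosen with earlier results of these data known, so lists are described by counts and medians with no test of their own. Besides the 10 genes, the text names from each list up to 4 genes per direction with the largest difference among those that passed with at least 5 CPM in the higher fraction and the same direction in 8 mice, plus paralogs and direct partners of the 10. Genes outside this rule, such as *Xbp1*, were named after their values were seen. Some genes that the rule selects are not reported here. Genes most similar in profile were to be named only for a difference of at least 1 on the log2 scale, which none of the 10 reached. Motif letters were searched on both strands of RefSeq promoter windows (GRCm38.p6) as a description only.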

Additional observations from a re-analysis of the deposited data

Results flagged for a closer look

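For each of the 10 genes, the 8 CPM values of each fraction were examined for a library far from the others, measured as its gap to the nearest library divided by the range of the 8, against Dixon's limit at the 95% level. The 20 such sets are not independent, since both fractions of a gene come from the same mice. Of them 3 passed the limit, where about 1 would by chance, and all 3 were libraries of mouse 7. *Irgm1* was the highest in tdTom+ at 58.8 CPM, with the other mice at 22.4 to 32.9 CPM (gap 0.713), and in tdTom- at 48.3 CPM, with the others at 11.9 to 23.2 CPM (gap 0.687). *Nod2* was the highest in tdTom- at 3.10 CPM, with the others at 1.27 to 1.92 CPM (gap 0.645). In tdTom- that mouse also gave the smallest sums of absorptive (14550 CPM), enteroendocrine (597 CPM) and tuft (19.8 CPM) markers and the highest B and plasma cell (2904 CPM) and stem cell (2809 CPM, the others 1118 to 1757) sums. Its tdTom+ library had the highest Paneth (139451 CPM, the others 52683 to 97277) and stromal (46.0 CPM) sums and the lowest goblet (128104 CPM) and absorptive (1563 CPM) sums. The part of these in the *Irgm1* and *Nod2* levels was not tested.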

How the results depend on the processing

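*Atg7*, *Map1lc3b* and *Sqstm1* kept their direction and passed the threshold under all 18 alternatives, with log2 differences of 0.74 to 0.93, 0.35 to 0.53 and 0.48 to 0.66. Over all members and alternatives, 150 values kept direction and side of the threshold, 5 lost and 2 gained the call and 5 changed sign. With an absolute log2 difference of at least 1 also required, 3498 genes passed instead of 8556, and the counts were 0 for the 10 genes, 5 for the autophagy machinery, 3 for cargo receptors, 1 for lysosomal genes, 1 for the NOD pathway, 5 for IRG and GBP genes and 0 for LRRK2 partners, since this threshold asks more of each gene. IRG and GBP genes numbered 5 of 6 tested with at least 10 counts in every library, and 3 with no replicate block in edgeR and in DESeq2. Paired and unpaired fits called 8556 and 7606 genes. The counts higher and lower in the unpaired fit were 7 and 12 for the machinery, 5 and 8 for the NOD pathway, 8 and 2 for other Crohn genes and 3 and 6 for lysosomal genes, where *Gaa* was lost (log2 0.19, adjusted p = 0.0683, with 0.000114 to 0.0683 over its alternatives). Requiring at least 10 counts in every library moved the median of all genes by 0.12 and the split of calls from 3956 higher and 4600 lower to 4448 and 3356. *Becn1* was then -0.08 (adjusted p = 0.129), or -0.20 relative to that shift, and in DESeq2 with no block it missed the threshold at -0.20 (adjusted p = 0.0116).

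Values that changed sign were all near 0. *Ripk2* was 0.041, *Atg5* 0.0038, *Gabarapl2* 0.013 and *Lrrk1* 0.11 with at least 10 counts in every library, *Gabarap* was -0.020 and *Pik3c3* -0.0056 when scaled by library totals, and *Lrrk1* was 7.1e-05 with RLE size factors and 0.0017 in DESeq2 with the block. Leaving out single mice gave log2 ranges of -0.0053 to 0.17 for *Nod2*, -0.13 to 0.035 for *Ripk2* and -0.035 to 0.11 for *Lrrk1*, with the sign changed without mouse 6 for *Nod2*, mouse 3 or 6 for *Ripk2* and mouse 3, 5, 7 or 8 for *Lrrk1*. Counts of calls ranged without single mice from 7911 to 8923 over all genes, 4 to 6 for the 10 genes, 14 to 21 for the machinery, 10 to 11 for cargo receptors, 9 to 11 for lysosomal genes, 13 to 17 for the NOD pathway, 8 to 9 for IRG and GBP genes, 2 to 3 for LRRK2 partners and 10 to 12 for other Crohn genes. Relative to the shift of all genes with at least 10 counts in every library (0.12), *Ripk2* was -0.078 and *Atg5* -0.12. The median of all genes moved by -0.064 when scaled by library totals, by 0.10 without mouse 3 and by -0.0043 without mouse 6. The part of such shifts in the changes of sign and of counts was not tested. *Lrrk2*, *Nod2* and *Ripk2* had the fewest reads of the 10 genes.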
